A study of Mus musculus with 8 samples.

Results

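The 10 genes described here are chains and helpers of MHC class II antigen presentation, markers of Langerhans cells and other myeloid cells, and the class I-like gene *H2-M2*. They are *Cd74*, *H2-Ab1*, *H2-Aa*, *H2-Eb1*, *H2-DMa*, *H2-M2*, *Cd207*, *Csf1r*, *Tyrobp* and *Ctss*, 10 of the 19591 genes listed in the series. They were taken by symbol, and the class II genes among them were selected on their bulk counts, which were lower in EGFP+ than in EGFP- cells, so their bulk values below are a description, and nothing is read from the calls of a fit on them. All samples came from telogen back skin epidermis of adult C57BL/6 mice that carry *Troy*-EGFP-IRES-CreERT2, in which EGFP and a tamoxifen-inducible Cre replace the protein-coding region of *Troy* (*Tnfrsf19*), a receptor gene of the TNF receptor family. For bulk sequencing, 2 mice each gave viable (DAPI-) cells, ITGA6bright EGFP+ cells and ITGA6bright EGFP- cells, ITGA6 being the integrin that marks basal layer cells. For single-cell sequencing, 1 plate of 384 wells was filled from each of 4 *Troy*-EGFP mice, with ITGA6- cells and ITGA6bright cells with and without EGFP. A plate was also filled from each of 2 traced mice, which were double homozygous males for the same allele and Rosa26-LSL-tdTomato and were sorted a week after 1 tamoxifen injection into ITGA6-, dim and bright cells by EGFP and tdTomato. The gate of each well was not used here. ITGA6 gates and the labels single out keratinocytes, whereas Langerhans cells, which the gates on ITGA6 and EGFP do not name, enter a plate only as far as they fall into one of them.

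Langerhans cells are the resident antigen-presenting cells of the epidermis. They depend on the receptor encoded by *Csf1r* and carry langerin, the product of *Cd207*. A class II molecule pairs an alpha with a beta chain, is escorted by the invariant chain CD74, has that chain trimmed by cathepsin S in the endosome, and is loaded with peptide by H2-DM before it reaches the surface. Transcription of the genes of the class II chains, CD74 and H2-DM is driven through a shared promoter module, the X and Y boxes, that recruits the coactivator CIITA.

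Of the 10 genes 5 lie in the MHC on chromosome 17 (GRCm38). *H2-Ab1* spans chr17:34257689-34269419 on the plus strand, *H2-Aa* chr17:34282744-34287823 on the minus strand and *H2-Eb1* chr17:34305867-34316674 on the plus strand. *H2-DMa* lies at chr17:34119541-34139101 and *H2-M2*, a class I-like gene, at chr17:37480851-37483552. *Cd207* lies on chromosome 6, *Tyrobp* on 7, *Ctss* on 3, and *Cd74* and *Csf1r* on 18. The annotated spans of *H2-DMa*, *H2-Eb1* and *Csf1r* overlap genes on the opposite strand (*Brd2*, an antisense RNA and *Hmgxb3*), and the strand setting of the counting is not given in the sources used here.

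The promoters of the alpha and beta chain genes *H2-Aa* and *H2-Eb1* are shown because both chains were read together throughout the results and both windows hold the class II module. RefSeq promoter entries (GRCm38.p6) were used for 6 of the 10 genes. That the other genes have none here is not read as their absence from RefSeq. The 150 bases before the start are printed 5′ to 3′ for *H2-Aa* and *H2-Eb1*. They are chr17:34287824-34287973 on the minus strand for *H2-Aa* and chr17:34305717-34305866 on the plus strand for *H2-Eb1*. Capitals mark, in order, the X box core (CTNGNAACT), in *H2-Aa* the palindrome TGACGTCA that follows it, and the Y box (CTGATTGG).
H2-Aa: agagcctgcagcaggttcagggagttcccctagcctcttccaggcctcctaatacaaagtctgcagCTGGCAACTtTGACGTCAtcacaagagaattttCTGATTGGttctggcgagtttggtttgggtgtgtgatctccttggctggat
H2-Eb1: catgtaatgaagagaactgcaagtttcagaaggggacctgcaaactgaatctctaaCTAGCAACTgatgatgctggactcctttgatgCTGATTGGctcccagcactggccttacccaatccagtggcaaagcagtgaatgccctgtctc

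The X box core began 84 bases before the start of *H2-Aa* and 94 bases before that of *H2-Eb1*, and the Y box 51 and 62 bases before it. Searched on both strands of the 250 bases before the start in 32851 promoters, the Y box was found in 3.83%, the X box core in 3.47%, TGACGTCA in 1.55%, and X box core and Y box together in 0.128% (42 promoters). None of these motifs was found in the entries of *H2-DMa*, *H2-M2*, *Cd207* and *Ctss*. The promoters of *Cd74*, *H2-Ab1*, *Csf1r* and *Tyrobp* were not examined, and nothing is read about their motifs. The letters searched were chosen after the promoters of *H2-Aa* and *H2-Eb1* were seen, and a match is a description of the sequence only.

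In bulk, the class II chains were lowest in the EGFP+ cells of both mice. *H2-Ab1*, the class II A beta chain, gave 13 counts in EGFP+ cells, 62 in viable cells and 79 in EGFP- cells of mouse 1, and 3, 47 and 71 in those of mouse 2. On the scale of TMM-normalised counts per 1000000 counts of a library (CPM) these are 34.8, 221 and 596 in mouse 1 and 13.5, 106 and 414 in mouse 2. The EGFP+ values lay below, and the EGFP- values above, every other value of the gene.

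*H2-Aa*, the A alpha chain, had 42.9 CPM in EGFP+, 207 in viable and 370 in EGFP- cells of mouse 1, and 31.6, 58.6 and 315 in those of mouse 2. *H2-Eb1*, the E beta chain, had 26.8, 135 and 219 CPM in mouse 1 and 36.1, 149 and 472 in mouse 2, in the same order of populations. For both genes the order EGFP+, viable, EGFP- was the same in each mouse. The genes were chosen on this contrast, and how many of all genes had this order was not counted, so nothing is read from it, nor from that of *H2-Ab1*. *Cd74*, the invariant chain, was not counted in EGFP+ cells of mouse 1 and had 42.8 CPM in viable and 136 in EGFP- cells. In mouse 2 it had 18, 24.8 and 64.1 CPM, resting on 4, 11 and 11 counts.

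These 4 genes were the members that passed the filter on low counts, none of them in the EGFP+ cells alone, and their fitted log2 differences between EGFP+ and EGFP- cells were -3.73 (SE 0.79) for *Cd74*, -3.14 (SE 0.48) for *H2-Aa*, -4.23 (SE 0.45) for *H2-Ab1* and -3.51 (SE 0.42) for *H2-Eb1*. All 4 were among the 189 genes called lower in EGFP+ cells, 4.06% of the 4653 tested, and nothing is read from this since the same contrast chose them. The log2 difference of *Cd74* became -2.36 without the EGFP+ library of mouse 1 and -7.73 without that of mouse 2. Against viable cells the log2 differences of the EGFP+ cells ran from -1.70 to -2.57, and those of the EGFP- cells from 1.30 to 1.66. No call is read from these 2 comparisons, which share the values that chose the genes. They share their samples and are not separate evidence. In bulk, fewer cells of a type and less RNA per cell cannot be told apart.

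The other 6 genes had at most 11 counts in any bulk library. *Ctss*, which encodes the cathepsin that trims the invariant chain, had 11 and 6 counts in EGFP- cells of mice 1 and 2, 4 and 3 in viable cells and 0 in both libraries of EGFP+ cells. Against the limit of 3 counts that a summed count of 0 allows, *Ctss* was 10.5-fold higher in EGFP- than in EGFP+ cells per total count. Such a ratio leaves out the counting error of the EGFP- counts and is not a lower bound. *Csf1r*, the receptor for CSF1 and IL-34, had 0 and 6 counts in EGFP- cells and none in EGFP+ cells, 3.71-fold higher by the same limit, with all counts from mouse 2. *Cd207* (1 and 3 counts) and *Tyrobp* (2 and 2 counts), an adaptor of activating receptors on myeloid cells, were 2.47-fold higher in EGFP- cells by the same limit. *H2-DMa*, the alpha chain of the peptide-loading H2-DM, had 5 summed counts in EGFP- and 3 in EGFP+ cells, a ratio of 3.09 with a 95% counting interval of 0.601 to 19.9. For *H2-M2* the ratio on 3 and 4 counts was 1.39 (0.204 to 8.22), so that at this depth no difference was detectable for these last 2 genes.

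**Figure D1:**
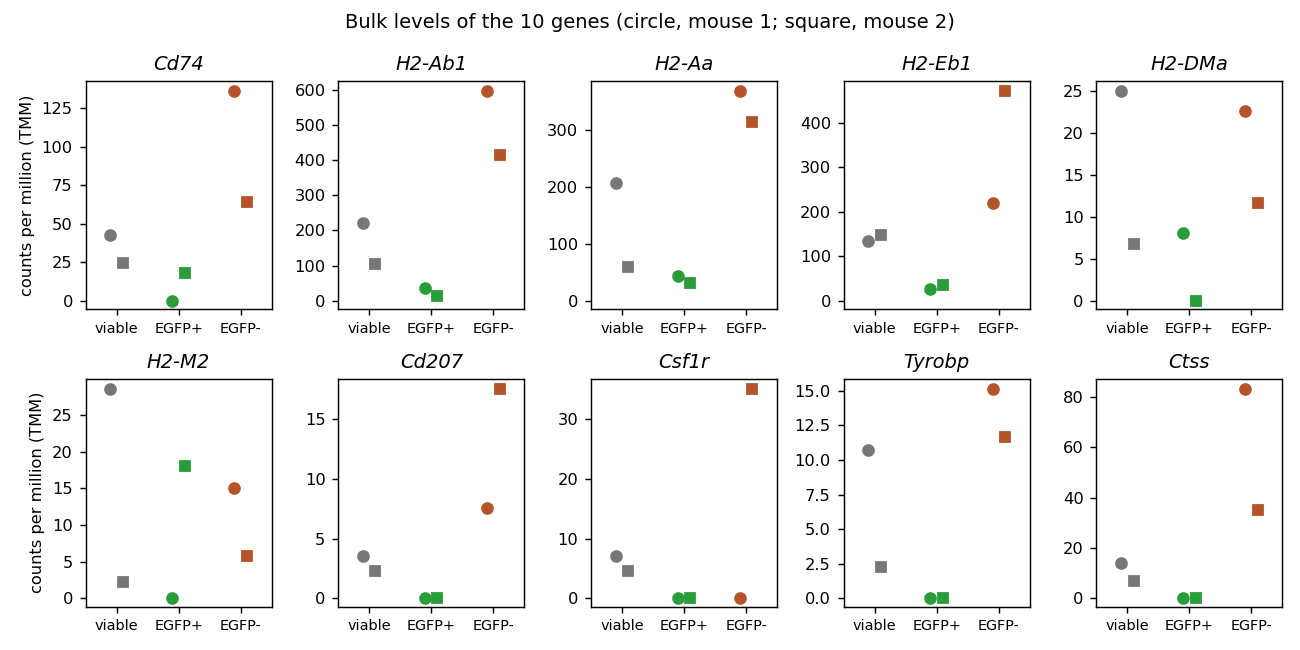
Levels of the 10 genes in the 6 bulk libraries, in CPM on linear axes that differ between panels, with circles for mouse 1 and squares for mouse 2. *H2-Ab1*, *H2-Aa* and *H2-Eb1* were lowest in EGFP+ cells and highest in EGFP- cells of both mice, while *H2-M2* did not follow this order.

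Genes of other lists that passed the filter on low counts only through libraries other than EGFP+ are given as values, with no test read from them. *Ptprc* (CD45, carried by all leukocytes) had 1 and 0 counts in EGFP+ cells against 18 and 16 in EGFP- cells, and *Cd53*, a leukocyte tetraspanin, had 0 and 1 against 9 and 7, both being such genes. Of the 7 pan-leukocyte genes 1 passed the filter in the EGFP+ cells alone, *Arhgdib*, which had 22 and 9 counts in EGFP+ cells against 1 and 3 in EGFP- cells, with a log2 difference of 1.93 that was not called (edgeR adjusted p = 0.125). Of the T cell markers *Thy1* could be tested and was not called (log2 difference 0.83, edgeR adjusted p = 0.200), while *Cd3e* and *Cd3g* had 1 and 0 summed counts in EGFP+ and 10 and 11 in EGFP- cells. The part of leukocyte numbers in the class II values was not tested. Of other class II pathway genes 3 passed in the EGFP+ cells alone and none of them was called by edgeR, with log2 differences of -0.59 (*Ctsb*), 0.51 (*Ctsh*) and 0.93 (*Ctsl*). *Ifi30*, a lysosomal thiol reductase, did not pass in this way and had a log2 difference of -2.04. Of other Langerhans and myeloid genes 2 passed in the EGFP+ cells alone, *Cd9* (-0.12) and *Cxcl16* (-0.69), and neither was called. *Epcam*, which Langerhans cells share with some keratinocytes, did not pass in this way and had a log2 difference of -2.30, and *Id2* (-0.70) and *Sirpa* (0.91) did not either. Of 2 genes tested among the ligands and contacts of Langerhans cells, *Cdh1*, the cadherin by which they adhere to keratinocytes, was lower (log2 difference -1.10, edgeR adjusted p = 0.0241), and *Il34* was not called (1.04).

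In the plates, wells with at least 1000 transcripts outside spike-in and mitochondrial rows were kept, 1109 wells in all. *Troy*-EGFP plates 1 to 4 kept 71, 129, 218 and 262 wells and traced plates 1 and 2 kept 229 and 200, with median transcripts per kept well of 1676, 2232, 3098, 3022, 3267 and 3214. A transcript here is the deposited estimate of distinct molecules for a gene in a well. *Troy*-EGFP plates 3 and 4 stood apart before any result, since their descriptions carry an F, they alone list mitochondrial rows and an eGFP row, and they alone held *Xist* (122 and 112 transcripts). *Troy*-EGFP plates 1 and 2 had 0.00296% and 0.00642% of transcripts from spike-ins, and the other 4 plates 1.29% to 2.72%. The comparisons between plates are therefore also given without plates 3 and 4, and the wells of high class II level, most of which lie there, are also given for the other plates. All plates share the same 384 well barcodes, and the highest correlation of well totals between any pair of plates was 0.180.

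Class II transcripts were concentrated in few wells. The sum of *Cd74*, *H2-Ab1*, *H2-Aa* and *H2-Eb1* reached at least 50 transcripts in 40 of the 1109 wells, hereafter called high wells, and no well lay between 33.0 and 51.1 transcripts. The highest well held 1064 class II transcripts among 10997 and the next highest 587. In high wells class II made up 1.38% to 15.2% of all transcripts, with a median of 9.75%. The 40 wells held 88.9% of all class II transcripts counted in the 6 plates.

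Each of the 40 high wells also held *Cd207* or *Csf1r* (100%, exact 95% binomial interval 91.2% to 100%). *Csf1r* was seen in all 40 and *Cd207* in 39. The share was the same at minima of 34, 100 or 200 class II transcripts, which left 40, 36 and 32 wells, and at a minimum of 20 it was 40 of 46 wells (87.0%). These minima were chosen after the data were seen. The 6 wells between 20 and the gap held neither gene.

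The reverse did not hold. *Cd207* or *Csf1r* was seen in 69 wells, and the other 29 of them held 0 to 13 class II transcripts, with a median of 2. In 25 of these 29 wells the call rested on 1 molecular barcode of either gene. The remaining 1040 wells with neither gene and under 50 class II transcripts, called low wells below, held 10.5% of the class II transcripts.

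**Figure D2:**
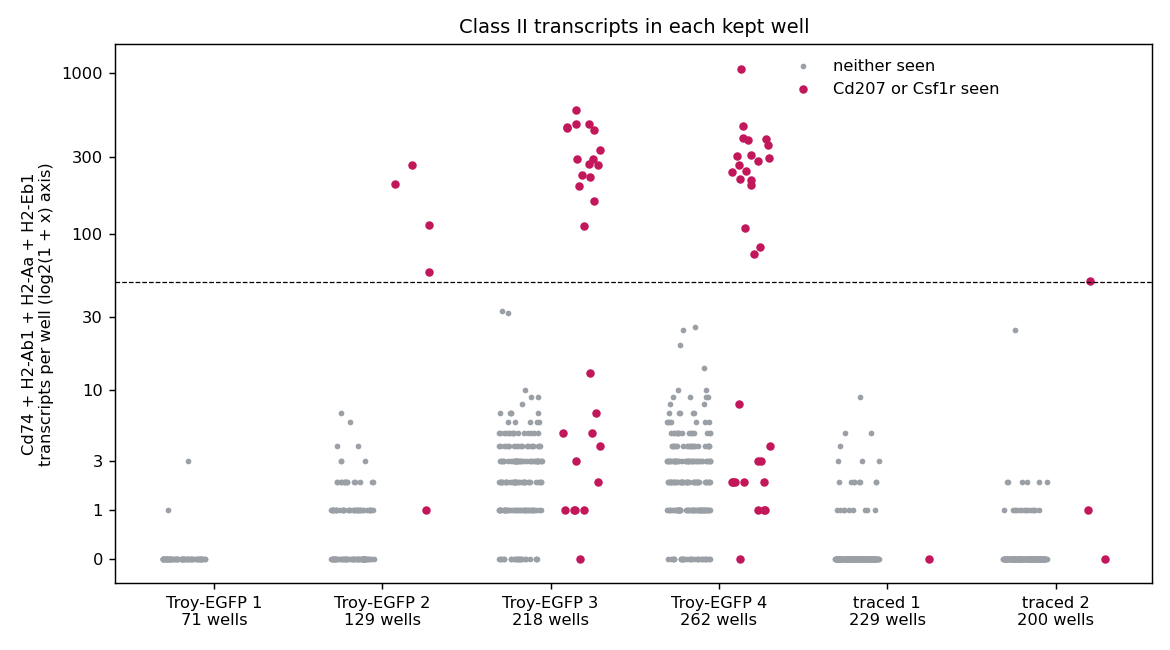
Class II transcripts (sum of *Cd74*, *H2-Ab1*, *H2-Aa* and *H2-Eb1*) in each kept well by plate, on a log2(1 + x) axis, with wells coloured by whether *Cd207* or *Csf1r* was seen and a dashed line at 50 transcripts. The 40 wells above the line all held *Cd207* or *Csf1r*, and 39 of them were on *Troy*-EGFP plates.

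The members differed in how evenly they filled the high wells. Over the 40 high wells, *Cd74* ranged from 1 to 207 transcripts (median 36.7), *H2-Ab1* from 12.0 to 341 (median 88.4), *H2-Aa* from 6.00 to 268 (median 76.2) and *H2-Eb1* from 5.00 to 248 (median 61.5). All 4 were seen in each high well. *H2-DMa* was also seen in all 40, at 1 to 39.2 transcripts (median 9.51).

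*Csf1r* had a median of 8.51 transcripts and a highest value of 28.1, and *Cd207* a median of 5.00 and a highest value of 16.0. *Tyrobp* and *H2-M2* were each seen in 37 of 40 high wells, both with a median of 5.00 and with highest values of 19.0 and 52.3. *Ctss* was seen in 34, with a median of 3.00 and a highest value of 11. The genes of lower level were thus the ones missed in some wells. Of the 40 high wells 35 lay on *Troy*-EGFP 3 and 4. In the other 5 the medians were 32.1 transcripts of *Cd74*, 27.1 of *H2-Ab1*, 45.2 of *H2-Aa*, 10.01 of *H2-Eb1*, 5.00 of *Cd207* and 3.00 of *Csf1r*, each seen in all 5, and *H2-DMa* was seen in 5, *Tyrobp* in 4 and *H2-M2* and *Ctss* in 3.

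In the 1040 low wells *H2-Aa* was seen in 27.0%, *H2-Eb1* in 26.6% and *H2-Ab1* in 22.9%. The same wells held *Cd74* in 5.19%, *H2-DMa* in 4.13%, *Tyrobp* in 1.73%, *H2-M2* in 1.25% and *Ctss* in 1.15%. The median depth was 3030 transcripts in high and 2894 in low wells. By plate it was 1255 in high and 2281 in low wells of *Troy*-EGFP 2, 3053 and 3099 on plate 3, and 3072 and 2982 on plate 4. *Cd207* and *Csf1r* are at 0 in the low wells by construction.

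**Figure D3:**
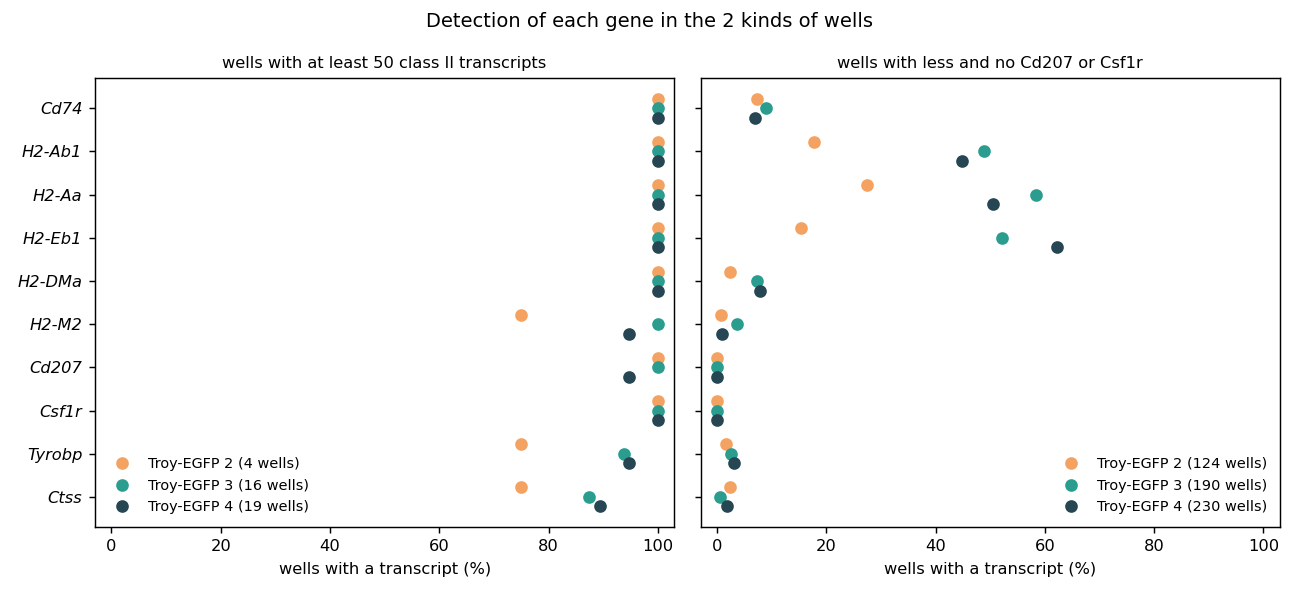
Share of wells with at least 1 transcript of each gene, in % of wells, in wells with at least 50 class II transcripts and in wells with fewer and neither *Cd207* nor *Csf1r*, for *Troy*-EGFP plates 2, 3 and 4. In the first kind every gene was seen in 75% or more of the wells of each plate, and in the second the chain genes *H2-Ab1*, *H2-Aa* and *H2-Eb1* reached 17.7% to 62.2% except for *H2-Eb1* on plate 2 (15.3%).

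Summed over the *Troy*-EGFP plates, high wells held 96.5% of *Cd74*, 95.2% of *H2-M2*, 92.4% of *H2-DMa*, 92.1% of *Ctss*, 91.7% of *Tyrobp*, 90.9% of *H2-Ab1*, 88.6% of *H2-Aa* and 85.4% of *H2-Eb1* transcripts. The order differed by plate. The highest of these 8 shares was that of *Cd74* on plate 2 (95.2%), *Ctss* on plate 3 (97.6%) and *H2-M2* on plate 4 (97.8%), and the lowest that of *Tyrobp* on plate 2 (54.5%) and *H2-Eb1* on plates 3 and 4 (87.5% and 83.8%). For class II as a whole the share in wells with *Cd207* or *Csf1r* was 86.9% on plate 2, 90.8% on plate 3 and 90.1% on plate 4. At a minimum of 2000 transcripts per well it was 92.5% and 91.2% on plates 3 and 4 but 1.61% on plate 2 (1 of 62.0 class II transcripts), where the high wells were shallower. On plate 1, 4 class II transcripts were counted in 71 wells and no well held *Cd207* or *Csf1r*.

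Wells with *Cd207* or *Csf1r* were then compared with the other wells of the same plate, as sums per plate, on the 3 plates with at least 5 such wells (*Troy*-EGFP 2, 3 and 4). *Cd207* and *Csf1r* chose the wells and are not a result, and *Cd74* and *H2-Ab1* were known from earlier results of these data to lead such wells. Of 4835 genes tested, 341 were called higher in the marker wells (7.05%) and 103 lower (2.13%) by edgeR with the plate as a block. Of the other 8 members, *H2-Ab1*, *H2-Aa* and *H2-Eb1* passed the filter on low counts in the other wells alone, and these 3 were called higher. The remaining 5 passed it only through the marker wells, where their direction was fixed by the filter, and are given as values.

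*Cd74* stood at 14976, 8901 and 8543 CPM in marker wells of plates 2, 3 and 4 and at 34.5, 53.5 and 31.4 CPM in the other wells, a log2 difference of 8.02 (SE 0.84). *H2-Ab1* stood at 12771, 23371 and 19391 CPM against 89.8, 292 and 246 CPM, a log2 difference of 6.57 (SE 0.76, edgeR adjusted p = 1.52e-15). For both genes each marker value lay above every other value, and how many of all genes did so was not counted. *Ctss* was at 912, 560 and 751 CPM against 10.4, 1.85 and 10.002 CPM, a log2 difference of 6.61 (SE 0.64). *Tyrobp* was at 456, 956 and 1352 CPM against 17.3, 11.1 and 10.002 CPM, a log2 difference of 6.27 (SE 0.70). *H2-M2*, *H2-DMa*, *H2-Aa* and *H2-Eb1* differed by 7.49, 6.53, 6.19 and 5.87. Without *Troy*-EGFP 3, whose plate gave 28 of the 65 marker wells, *H2-Aa*, *H2-Ab1* and *H2-Eb1* no longer passed (edgeR adjusted p = 0.155, 0.111 and 0.138), with log2 differences of 6.19, 6.64 and 5.87.

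Of other class II pathway genes 11 were tested, 5 of which passed the filter in the other wells alone. Of these 5, edgeR called 2 higher and none lower, *Ifi30* and *Ctsh*, a further lysosomal cathepsin, both with a log2 difference of 1.96. The 6 that passed only through the marker wells include *H2-DMb1*, the beta chain of H2-DM (228, 846 and 1152 CPM against 3.45, 14.8 and 24.3 CPM), and *Cd86*, a costimulatory ligand (152, 95.6 and 230 CPM against 0, 0 and 5.72 CPM). Of 6 other Langerhans and myeloid genes that passed in the other wells alone edgeR called 4 higher, *Sirpa*, an inhibitory receptor of myeloid cells (3.40), *Fcer1g*, an immune receptor adaptor (2.75), *Epcam* (2.04) and the transcription regulator *Id2* (1.79), and none lower. Of pan-leukocyte genes 4 passed in this way and all 4 were called higher, *Cd52* (3.12), *Laptm5* (2.77), *Ptprc* (2.21) and *Arhgdib* (2.11). The median log2 difference over all genes tested was -0.15. Among the same genes edgeR called none of 5, of 6 and of 4 without *Troy*-EGFP 3, in a fit that called 1.37% of all genes, and none of 5, of 6 and of 4 without *Troy*-EGFP 4, in a fit that called 1.54%. Without *Troy*-EGFP 2 it called 2, 4 and 4 higher and 1 class II pathway gene lower, in a fit that called 14.4% of all genes. These counts were added after the data were seen.

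Markers of macrophages and dermal dendritic cells were also measured in these wells. *Emr1* (F4/80, which Langerhans cells also carry), *Itgam*, *C1qa* and *Mgl2* were the 4 of 12 that passed the filter on low counts, all 4 only through the marker wells, so no test is read from them. *Emr1* was seen in 28, *Itgam* in 15, *C1qa* in 12 and *Mgl2* in 7 of the 40 high wells, and in 3, 4, 0 and 5 of the 1040 low wells. *Mrc1*, *C1qb*, *Cd14*, *Xcr1* and *Clec9a* were seen in none of the 40, *C1qc* in 1 and *Cd209a* in 2. A count of 0 in 40 wells has an exact interval of 0% to 8.81%. Of the Langerhans-type genes that did not enter the choice of wells, *Epcam* was seen in 37, *Mfge8*, a secreted bridge to dying cells, in 34 and *Ltc4s*, a leukotriene synthase, in 30 of 40. Others of the same list were rarer, with *Irf8* in 13, *Itgax* in 7, *Ly75* in 5, *Spi1* in 3, *Cd68* in 2 and *Aif1*, *Lyz2*, *Ccr6* and *Il1b* in none. In the 5 high wells outside *Troy*-EGFP 3 and 4, *Epcam* was seen in 4, *Emr1* in 3, *Mfge8* in 2, *Ltc4s*, *Itgam*, *C1qa* and *Irf8* in 1 each and *Mgl2* in none.

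No T cell or keratinocyte marker tested was called higher. Of 7 T cell genes tested *Cd3e* was lower (log2 difference -3.94), and 4 of the 40 high wells held any of *Cd3d*, *Cd3e*, *Cd3g* or *Cd7*. *Cd2* had a log2 difference of 1.82 that was not called (edgeR adjusted p = 0.148) and was seen in 9 of the 40 high wells (22.5%) and in 3.65% of low wells. Of 8 keratinocyte genes 6 were lower, with *Krt5* at -1.91, *Krt14* at -2.07, *Krt10* at -2.14 and *Krt15* at -2.16. The 8 keratinocyte genes together made up a median of 0.122% of transcripts in high wells (highest 1.25%) and 2.67% in low wells. *Krt5* was nevertheless seen in 33 of the 40 high wells, with a median of 2.00 transcripts, against a median of 29.1 in low wells. *Cdh1* and *Il34*, the keratinocyte-derived ligand of CSF1R, were not called by edgeR (log2 differences 0.22 and -1.15). Without *Troy*-EGFP 3, and likewise without *Troy*-EGFP 4, no gene was called lower in marker wells.

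Wells without *Cd207* or *Csf1r* still differed by plate in how often they held class II transcripts. At least 1 class II transcript was seen in 2.82%, 47.6%, 86.8% and 86.5% of low wells of *Troy*-EGFP plates 1 to 4 and in 10.5% and 10.7% of those of traced plates 1 and 2. The mean per low well was 0.0563, 0.782, 2.86 and 2.86 transcripts, and 0.250 and 0.259 on the traced plates. The order of the plates was that of their total class II level, apart from *Troy*-EGFP 3 and 4, which were alike here.

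Low wells were also split by make-up, with no test of the differences. On plate 3, 80% of wells with at least 2 T cell marker transcripts (8 of 10, exact interval 44.4% to 97.5%) and 88.5% of wells with at least 20 keratinocyte marker transcripts and no T cell marker (82.2% to 93.2%) held one. On plate 4 the shares were 76% (54.9% to 90.6%) and 89.5% (84.0% to 93.7%), and on plate 2 they were 66.7% (22.3% to 95.7%) and 43.9% (33.9% to 54.3%). On the traced plates none of 13 and 15 T cell wells held a class II transcript, against 10.8% and 11% of keratinocyte wells. The intervals of the T cell and keratinocyte wells overlapped on each of these plates. Per 1000000 transcripts, T cell wells held 578, 1214 and 849 class II transcripts on *Troy*-EGFP 2, 3 and 4, keratinocyte wells 247, 721 and 710, and wells of neither kind 544, 2030 and 1128. The T cell wells were shallower, with median transcripts of 1881 against 3466 on plate 3, as were the wells of neither kind, with 1529. T cells and keratinocytes normally carry little class II, and no expression in them is read from these shares.

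The make-up of the class II transcripts was not the same in both kinds of wells. *Cd74* gave 12.3% of the 4 genes' transcripts in high wells of *Troy*-EGFP 3 (exact interval 11.4% to 13.2%) and 5.33% in its low wells (3.60% to 7.57%). On *Troy*-EGFP 4 it gave 14.4% (13.5% to 15.3%) and 3.34% (2.11% to 5.02%). On *Troy*-EGFP 2 it gave 30.6% (27.0% to 34.3%) and 10.3% (5.06% to 18.1%). On all 3 plates the share in low wells was below that in high wells and the intervals did not overlap.

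*H2-Eb1* ran the other way, with 14.6%, 22.9% and 23.4% in high wells of plates 2, 3 and 4 and 20.6%, 29.8% and 39.1% in low wells. Its intervals did not overlap on plates 3 and 4 and did on plate 2 (11.9% to 17.5% and 13.1% to 30.03%). *H2-Ab1* gave 25.9%, 31.9% and 32.6% in high wells and 26.8%, 29.0% and 26.1% in low wells, and its intervals did not overlap on plate 4 (31.3% to 33.8% and 22.8% to 29.7%). *H2-Aa* gave 28.9%, 32.9% and 29.7% in high wells and 42.3%, 35.8% and 31.5% in low wells, with intervals that overlapped on each plate. On the traced plates, with 57.0 and 51.02 class II transcripts in low wells, *Cd74* gave 15.8% and 21.6% of them, and *H2-Eb1* 36.8% and 9.80%. The 1 high well of traced plate 2 had 29.4% *Cd74* and 17.6% *H2-Eb1*, so that *H2-Eb1* was there higher in the high well, with intervals that overlapped for both genes. These intervals cover counting error only. In the bulk libraries *Cd74* gave 7.06% and 7.33% of the 4 genes' counts in viable cells and 10.3% and 5.07% in EGFP- cells, and in EGFP+ cells 0 of 39 and 4 of 22 counts (18.2%).

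**Figure D4:**
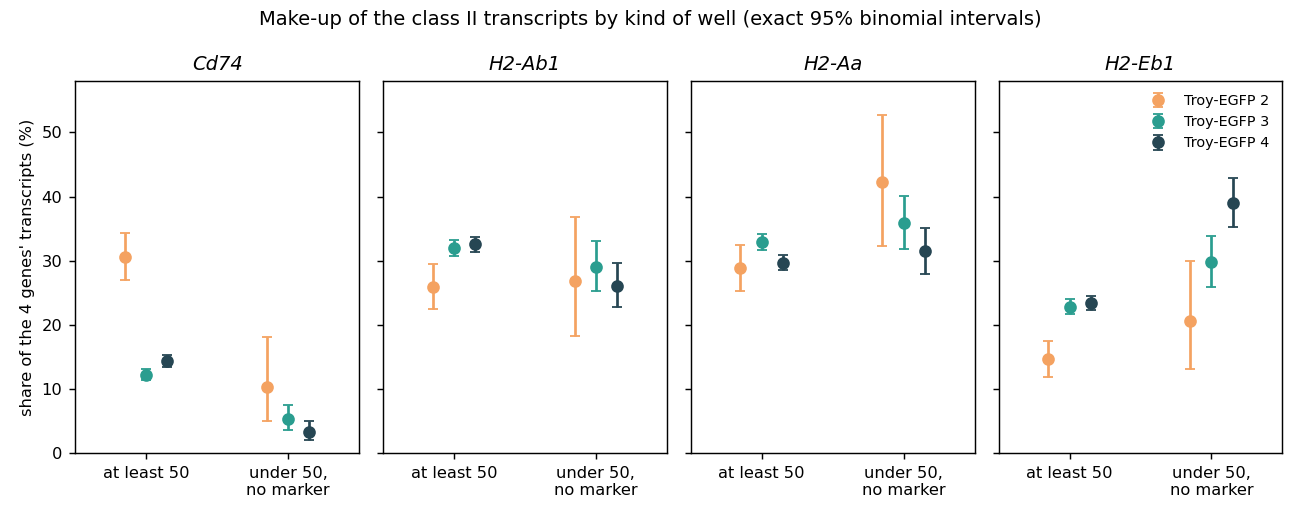
Share of each of the 4 genes in their summed transcripts, in %, in wells with at least 50 class II transcripts and in wells with fewer and no *Cd207* or *Csf1r*, for *Troy*-EGFP plates 2, 3 and 4, with exact 95% binomial intervals. *Cd74* was lower in the second kind on each plate and *H2-Eb1* higher.

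The *Troy*-EGFP and traced plates differed in how many wells held *Cd207* or *Csf1r*. These were 0 of 71 kept wells on *Troy*-EGFP 1 (which allows a share of up to 4.23%), 5 of 129 (3.88%) on plate 2, 28 of 218 (12.8%) on plate 3 and 32 of 262 (12.2%) on plate 4. On traced plates 1 and 2 they were 1 of 229 (0.437%) and 3 of 200 (1.5%). The mean share was 7.23% ± 6.32 (SD, n = 4) on the *Troy*-EGFP and 0.968% ± 0.752 (SD, n = 2) on the traced plates. The difference of -6.27 percentage points had an exact two-sided permutation p = 0.4, where the smallest p this design allows is 0.133, so the test could not have passed. *Troy*-EGFP plate 1 lay below both traced plates. With every well thinned to 1000 transcripts the shares were 0%, 3.10%, 8.72% and 8.40% on the *Troy*-EGFP plates and 0.437% and 1% on the traced plates.

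The difference rested on *Troy*-EGFP plates 3 and 4. Without them it was -0.970 percentage points (exact permutation p = 1). High wells followed the same order, with 0, 4, 16 and 19 on *Troy*-EGFP plates 1 to 4 and 0 and 1 on the traced plates. The 1 high well of a traced plate held 51.1 class II transcripts, 1.38% of its 3694 transcripts, against medians of 12.5%, 10.2% and 8.93% in the high wells of *Troy*-EGFP plates 2, 3 and 4. T cells gave another pattern. Wells with *Cd3d*, *Cd3e*, *Cd3g* or *Cd7* made up 1.41%, 8.53%, 10.1% and 17.2% of kept wells on the *Troy*-EGFP plates and 9.17% and 10% on the traced plates (exact permutation p = 0.933). Whether the gates, the sex of the mice or the tracing set the number of Langerhans-type wells cannot be told apart in this design.

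**Figure D5:**
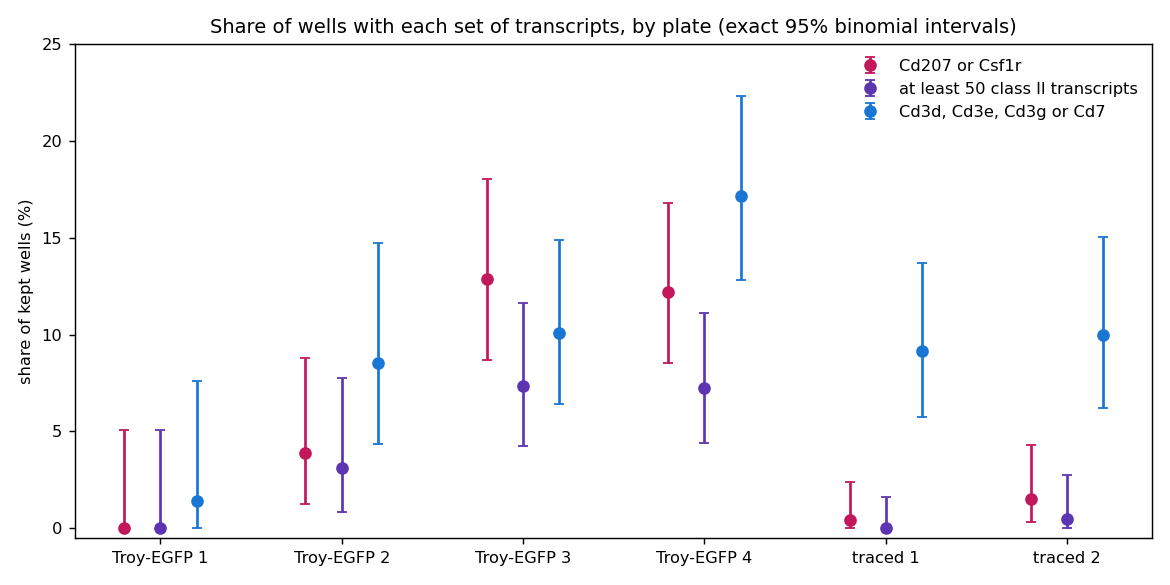
Share of kept wells, in %, with *Cd207* or *Csf1r*, with at least 50 class II transcripts and with a T cell transcript on each of the 6 plates, with exact 95% binomial intervals. *Troy*-EGFP 3 and 4 stood at 12.8% and 12.2% for *Cd207* or *Csf1r* and the other plates at 3.88% or less. For each kind of well the shares of the traced plates lay within the range of the *Troy*-EGFP plates.

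Summed over all kept wells, each member had a lower level on the traced plates than on *Troy*-EGFP plates 2, 3 and 4. *Cd74* stood at 6.49, 569, 882 and 862 transcripts per 1000000 transcripts on *Troy*-EGFP plates 1 to 4 and at 10.8 and 33.5 on the traced plates. *H2-Ab1* stood at 13, 532, 2421 and 2076 against 14.4 and 38.6, and *H2-Aa* at 6.49, 624, 2539 and 1950 against 18.1 and 41.2. *Troy*-EGFP 1 again lay below or near the traced plates. *H2-Eb1* was at 0, 314, 1798 and 1630 against 25.3 and 19.3, and *H2-DMa* at 6.49, 38.4, 336 and 234 against 3.61 and 6.43. *Cd207* was at 0, 63.1, 139 and 116 against 0 and 3.86, and *Csf1r* at 0, 49.4, 272 and 217 against 1.20 and 5.15. *Troy*-EGFP 3 was the highest plate for 8 members and *Troy*-EGFP 4 for *Tyrobp* (140) and *Ctss* (80.8), both with plate 2 between them and the traced plates.

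None of the 10 members passed the test between the traced and *Troy*-EGFP plates. The log2 differences ran from -3.06 for *Tyrobp* to -5.73 for *H2-Ab1*, with edgeR adjusted p from 0.131 to 0.202, and 35 of 9104 genes were called in this comparison (0.384%). All members but *H2-Ab1*, *H2-Aa* and *H2-Eb1* passed the filter on low counts only through the *Troy*-EGFP plates, so only these 3 are followed through the other settings. These 3 had an unadjusted p under 0.05 in the same edgeR fit, as had 16.3% of all genes tested. DESeq2 called *H2-Ab1* and *H2-Aa* (DESeq2 adjusted p = 0.0182 and 0.0347) but not *H2-Eb1* (0.116), and 1.57% of all genes. Without *Troy*-EGFP 1, edgeR called all 3 (adjusted p 0.0320 to 0.0442) and 1.1% of all genes, and without *Troy*-EGFP 2 none of the 3 (adjusted p 0.0687 to 0.0839) but 7.2% of all genes. Without *Troy*-EGFP 3 and 4, edgeR called all 3 lower (log2 differences -3.20 to -3.70, adjusted p 0.0305 to 0.0422), in a fit that called 551 genes (7.5% of those tested). That fit set the traced plates against *Troy*-EGFP 1 and 2, of which plate 1 had 4 class II transcripts, so the difference rested on *Troy*-EGFP 2.

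The class II transcripts of the traced plates lay less in marker wells. On traced plate 2, 50.5% of 103 class II transcripts came from wells with *Cd207* or *Csf1r*, nearly all from its 1 high well, and on traced plate 1 none of 57.0 did. Levels within marker wells could not be compared between the experiments, since no traced plate had 5 marker wells.

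Other lists were not called by edgeR between the experiments. Of 12 other class II pathway genes 2, of 9 other Langerhans and myeloid genes 2, of 7 pan-leukocyte genes 1 and of 8 T cell genes none had an unadjusted p under 0.05, against 16.3% of all genes tested. *Lgmn* of the first list and *Ltc4s* of the second are in these counts. Both passed the filter on low counts only through the *Troy*-EGFP plates, so nothing is read from them. DESeq2 called 0, 1, 0 and 0 of these lists. Their median log2 differences were -0.13, -0.82, -0.09 and 0.37. Of the 12 macrophage and dermal dendritic markers *Emr1* (-7.09, edgeR adjusted p = 0.0959) and *Itgam* (-5.87, edgeR adjusted p = 0.202) could be tested, both only through the *Troy*-EGFP plates, and neither was called.

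*Troy* itself was not seen in the high wells. *Tnfrsf19* was detected in 0 of 40 high wells (exact interval 0% to 8.81%) and in 93 of 1040 low wells (8.94%, exact interval 7.28% to 10.8%). These intervals overlapped. It was seen in none of the 5 high wells outside plates 3 and 4. In this knock-in the protein-coding region of the gene is replaced, and eGFP, listed on *Troy*-EGFP plates 3 and 4 only, was seen in 0 of 16 and 0 of 19 high wells and in 1 of 190 and 1 of 230 low wells.

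The members were also compared with each other over the 40 high wells. Pearson's r of transcripts over the 40 wells was 0.68 for *H2-Ab1* with *H2-Aa*, 0.72 for *H2-Aa* with *H2-Eb1* and 0.69 for *H2-Ab1* with *H2-Eb1*, with Spearman's rho of 0.39, 0.29 and 0.49. *H2-DMa* had an r of 0.63 with *H2-Ab1* and 0.69 with *H2-Eb1* (rho 0.50 and 0.52), and *Csf1r* an r of 0.54 with *H2-Ab1* (rho 0.54), so that by rho these pairs stood above the pairs of chain genes. By r, *Cd74* stood at 0.26, 0.33 and 0.13 with *H2-Ab1*, *H2-Aa* and *H2-Eb1* and at 0.41 with *Cd207*, and *Cd207* at 0.51 with *Csf1r*. The wells share plates, and the depth of a well is the divisor of all its values. Of the wells 35 lie on *Troy*-EGFP 3 and 4 and the other 5 are too few for a correlation. The values are a description across wells.

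Outside the members, the genes whose log2(1 + transcripts per 1000) followed that of the class II sum most closely were sought among 9975 genes seen in at least 20 kept wells, by the mean over the 6 plates of the within-plate Pearson r, with a gene not seen on a plate counted as 0 there. The 10 with the highest mean were *Prkcb* (0.50), *P2rx2* (0.49), *Lcp1* (0.44), *Vim* (0.42), *Coro1a* (0.41), *Tnfaip2* (0.41), *H2-DMb1* (0.40), *Lsp1* (0.40), *Fxyd5* (0.38) and *Alox5* (0.38). *Prkcb*, a protein kinase C of immune cells, had r of 0.86, 0.79 and 0.88 on *Troy*-EGFP 2, 3 and 4 and was seen in 39 of 40 high wells and 48 of the 1069 others. *Tnfaip2* was seen in 33 high wells and in 5 others, and *Alox5*, the 5-lipoxygenase of leukotriene synthesis, in 34 and 19. On *Troy*-EGFP 1, traced 1 and traced 2 *Prkcb* had r of 0.27, -0.04 and 0.22, and *Tnfaip2* and *Alox5* had 0. On the same plates *H2-DMb1* had 0, 0.01 and 0.13 and *P2rx2* 0, 0 and 0.72. *Vim* and *Lcp1* were seen in 40 and 35 high wells but also in 128 and 82 others, and *Lcp1*, *Vim*, *Coro1a*, *Lsp1* and *Fxyd5* had r between -0.06 and 0.06 on the traced plates. The wells of a plate share depth and a library, and on *Troy*-EGFP 1 the correlations rest on 2 wells with class II transcripts. Without that plate, an alternative chosen after the data were seen, 5 of the 10 genes stayed among the first 10, *P2rx2* (0.59), *Prkcb* (0.54), *Tnfaip2* (0.49), *H2-DMb1* (0.48) and *Alox5* (0.45), followed by *Mfge8*, *Mmp9*, *Alox5ap* and *Emr1* (each 0.44), while *Lcp1*, *Vim*, *Coro1a*, *Lsp1* and *Fxyd5* fell to means of 0.29 to 0.37 (ranks 21 to 57). These 5 had r of 0.77 to 0.81 on *Troy*-EGFP 1.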

How the data were processed

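Libraries were made by CEL-Seq2, which reads transcript 3′ ends, from sorted bulk cells or from single cells in 384-well plates (SORT-seq). Per the labels, the submitters' processing notes name BWA 0.6.2-r126 and mm10; the counting program and annotation are not given in the sources used here. For the bulk cells the authors deposited whole-number counts per gene, 157537 to 453005 per library. For the plates the authors deposited estimated transcript counts per gene and well; dividing out the correction for reused molecular barcodes gave whole numbers (within 1e-06) in 100% of values above 0 for 4096 possible barcodes, those of 6 bases. The labels give a barcode of 4 bases, for which 56.3% to 74.7% of values came out whole, so the barcode length behind the values differs from that in the labels. These values were summed per plate and rounded before count tests.

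The 10 genes, the gene lists and the tests were chosen with earlier results of these data known. Wells with at least 1000 transcripts were kept and no doublet caller was run. Genes named outside the members were, of each list, up to 4 of the highest mean level among those called (or the 2 highest where none was), and the 10 most alike in level over wells; *Cd3g*, *Emr1* between experiments and genes given only by the wells that held them or as the rest of a counted list were named after their values were seen. Differences were fitted with edgeR 4.0.16 in R 4.3.3 (glmQLFit, TMM, filterByExpr, Benjamini-Hochberg over all genes tested, called under 0.05; SE from the F statistic), with all 3 bulk populations in 1 fit, and with DESeq2 1.42.0 as an alternative. Shares have exact (Clopper-Pearson) 95% binomial intervals, and a count of 0 allows 3 counts; intervals and limits cover counting error only. Exact permutation tests used plates as units (scipy 1.17.1). The count tests were tested on simulated counts. Each plate is 1 mouse, so its wells are not replicates. Bulk libraries of a number come from 1 mouse, and the correlation of their deviations from population means was 0.0848, 0.117 and 0.148. With the mouse as a block, 49 instead of 22 genes were called between EGFP+ and viable cells and 163 instead of 83 between EGFP- and viable cells. Plate numbers of the 2 experiments do not pair mice.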

Additional observations from a re-analysis of the deposited data

Results flagged for a closer look

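Wells under 1000 transcripts were left out of every comparison, and some of them held *Cd207* or *Csf1r*, 10 wells on *Troy*-EGFP 2, 4 on *Troy*-EGFP 3 and 9 on *Troy*-EGFP 4, against none on *Troy*-EGFP 1 and the traced plates. Among the 1195 wells left out, 6 had at least 50 class II transcripts (54.1 to 115 of 561 to 937 transcripts), and all 6 held *Cd207* or *Csf1r*.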

How the results depend on the processing

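Counts of genes called moved widely with the settings. The members' directions did not reverse in any alternative. Nothing is read from this for the bulk class II genes, which were chosen on their direction. The same holds for members that passed the filter on low counts only through the group where they are high. EGFP+ against EGFP- cells gave 328 genes, 141 with DESeq2, 151 with only the 2 populations, 468 with the mouse as a block, and 131 to 751 when a library was left out; without the EGFP+ library of mouse 1, *Cd74* no longer passed (edgeR adjusted p = 0.0704) and its log2 difference of -3.73 became -2.36, and without that of mouse 2 it became -7.73. EGFP+ against viable cells gave 22, 49 with the mouse block, 10 with DESeq2, 43 with no filter on low counts, 66 with only the 2 populations and 7 to 19 with a library left out. EGFP- against viable cells gave 83, and 163, 33, 133, 38 and 27 to 464 in the same order.

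Traced against *Troy*-EGFP plates gave 35 genes, 286 with DESeq2, 342 with no filter, 551 without *Troy*-EGFP 3 and 4 and 0 to 640 with a plate left out (640 without *Troy*-EGFP 2, and 0 without *Troy*-EGFP 4 or either traced plate). A replicate block on the plate number, which pairs no mice, gave 625. Of the results of all members in this comparison 42 alternatives newly passed and 92 did not change. The tally includes the 7 members that passed the filter on low counts only through the *Troy*-EGFP plates, so nothing is read from it.

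Marker against other wells gave 444 genes, 259 with no replicate block, 1485 with at least 2 barcodes asked of a marker well, 899 with *Cd207* alone, 999 with *Csf1r* alone, 273 with wells thinned to 1000 transcripts, 774 at a minimum of 2000 transcripts and 55 to 840 with a plate left out (840, 55 and 58 without *Troy*-EGFP 2, 3 and 4). The split of higher against lower calls was 341 to 103, 322 to 191 with DESeq2 size factors, 335 to 175 with DESeq2 and 588 to 897 with at least 2 barcodes. Of the members' results 101 alternatives did not change and 3 no longer passed, those of *H2-Aa*, *H2-Ab1* and *H2-Eb1* without *Troy*-EGFP 3. The tally includes *Cd74*, *H2-DMa*, *H2-M2*, *Tyrobp* and *Ctss*, which passed the filter on low counts only through the marker wells. No stability is read from it.

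The share of class II transcripts in marker wells of the *Troy*-EGFP plates was 90.2%, 86.4% with thinned wells, 86.5% without plates 3 and 4 and 89.7% to 90.4% with a plate left out (at a minimum of 2000 transcripts *Troy*-EGFP 2 alone fell to 1.61%); on the traced plates it was 32.5% and 0% to 50.5%. The difference in the share of marker wells ran from -8.68 to -4.39 percentage points with a plate left out. Asking at least 20 class II transcripts, a setting chosen after the data were seen, gave 87.0% of wells with *Cd207* or *Csf1r* in place of 100%. The planned comparison of marker wells between experiments was not run, since no traced plate had 5. The causes of these changes were not tested. Bulk depth limits the 6 members of few counts, and the traced plates held only 57.0 and 103 class II transcripts.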

Other observations

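Further genes of antigen presentation were counted in the 40 high wells and the 1040 low wells and are given as counts. *Ciita*, the class II coactivator, was seen in 9 high and 6 low wells, whereas *Rfx5* and *Rfxap*, subunits of the factor that binds the X box, were each seen in 3 high wells and in 75 and 90 low wells (7.5% of high wells against 7.21% and 8.65%). *H2-Oa* and *H2-Ob*, which encode a modulator of H2-DM, were seen in 10 and 4 high wells and in no low well. *March1*, a ubiquitin ligase that acts on class II, was seen in 13 high and 6 low wells. Of the costimulatory genes *Cd86* was seen in 17 high wells, *Cd40* in 3, *Cd83* in 1 and *Cd80* in none, and *Ccr7*, the receptor of migrating dendritic cells, in none. Of the cathepsins, *Ctsb* was seen in 65% of high and 55.3% of low wells, *Ctsh* in 65% and 17.4%, *Ctsd* in 10% and 35.7%, *Ctsl* in 0% and 21.3% and *Ctsz* in 17.5% and 3.94%, and between marker and other wells *Ctsb*, *Ctsd* and *Ctsl* were not called (edgeR adjusted p = 0.988, 0.156 and 0.340). The transcription factor *Runx3* was seen in 25 high and 56 low wells.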
